A study of Mus musculus with 8 samples.

Results

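The peroxisome proliferator-activated receptor alpha (PPARalpha) and a set of its classical liver targets were followed in mouse liver after adenoviral delivery of LeXis. The set was Ppara itself and 7 genes of fatty acid oxidation and the fasting response: Cpt1a, Cpt2, Acadm, Ehhadh, Cyp4a10, Cyp4a14 and Fgf21. Members were taken by gene name alone, as every non-control probe that the array's own annotation gives one of these names. That gave 14 of the 55681 probes on the array and 8 of the 23999 genes tested. All 14 probes were well above background on all 8 arrays. The set holds no enzyme of ketone body synthesis, so ketogenesis is described below from a separate list.

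The samples were livers of 12-week-old bl6 mice on chow, 4 given an adenovirus labelled AdLeXis and 4 given a control adenovirus labelled AdGFP. LeXis is a liver lncRNA encoded next to Abca1, and the series asks what its overexpression does to liver transcripts. RNA was taken on day 6, and each sample was hybridised in 1 colour to an Agilent expression array. Titles, treatment tags and the series design give AdLeXis and AdGFP, while the labels' treatment text names a control vector and one against Raly, each at 2.0e+09 with no unit. Samples were grouped by their titles. All mice carried a virus, so no uninfected liver is among the groups. The labels do not say that samples came from separate animals, so the p-values reflect sample-to-sample spread that can be technical in part.

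No probe was named LeXis. Probe A_30_P01028022, for an unnamed lincRNA region lying between the Abca1 and Mexis probes on chromosome 4 (mm9, chr4:53219839-53219898, minus strand), was at 2.58 ± 1.21 in AdGFP and 9.95 ± 0.36 in AdLeXis (log2 scale, SD, n = 4 per group) and was well above background on 1 AdGFP and all 4 AdLeXis arrays. Its level followed the labels on every array. Before scaling, the 75th percentile of spot intensity was 220 to 297 on AdGFP arrays and 381 to 448 on AdLeXis arrays, and the share of spots well above background was 58.9% to 62.5% and 62.6% to 67.7%. Saturated spots numbered 0. In the whole comparison 4198 of 23999 genes (17.5%) passed limma at an adjusted p under 0.05, 2094 higher in AdLeXis (8.73%) and 2104 lower (8.77%), and the median log2 difference was -0.002.

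PPARalpha is a nuclear receptor that binds fatty acids and their derivatives and acts on DNA as a heterodimer with RXR. In hepatocytes it is the main transcriptional regulator of fatty acid breakdown during fasting: long-chain fatty acids enter mitochondria through the carnitine shuttle, are shortened by beta-oxidation, and yield acetyl-CoA for ketone bodies. Peroxisomes handle very long and dicarboxylic chains, and microsomal Cyp4a enzymes start omega-oxidation. The Cyp4a genes and Ehhadh are among the targets that respond most to PPARalpha agonists in rodents, and Fgf21 is a hormone that the liver secretes on fasting and under amino acid or mitochondrial stress.

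None of the 8 genes passed the test between AdLeXis and AdGFP (0 of 8 by limma, where 17.5% of all genes passed). Acadm (limma unadjusted p = 0.0149) and Ppara (limma unadjusted p = 0.0332) came closest, both with higher means in AdLeXis. The share of all genes at an unadjusted p under 0.05 was not counted, so these values are not read as a result about the set. The difference was positive for 5 of the 8 and negative for 3, from -0.58 for Fgf21 to 0.34 for Cyp4a14. Only for Acadm did the groups not overlap, while they did not overlap for 24.7% of all genes. Values below are log2 scaled signals, and differences are AdLeXis minus AdGFP on that scale.

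**Figure D1:**
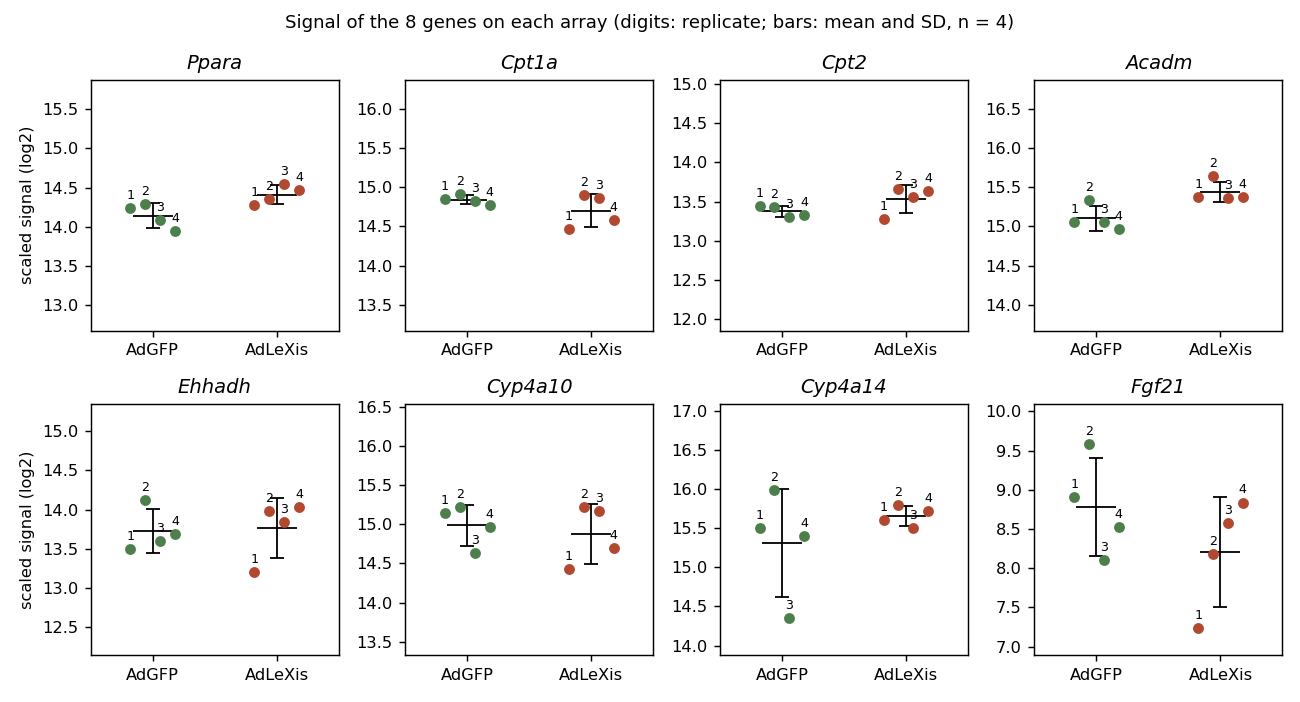
Log2 scaled signal (vertical axes, each spanning the same number of log2 units around its gene) of the 8 genes on each array, AdGFP in green and AdLeXis in red, with replicate numbers beside the points and bars for the mean and SD (n = 4). The 4 AdLeXis points lie above all 4 AdGFP points only for Acadm, and Cyp4a14 in AdGFP and Fgf21 in both groups spread over more than 1 log2 unit.

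Ppara, the receptor, was at 14.24, 14.29, 14.08 and 13.95 in AdGFP replicates 1 to 4 and at 14.27, 14.35, 14.55 and 14.46 in AdLeXis. The groups touched: AdLeXis replicate 1 lay between AdGFP replicates 1 and 2, and the other AdLeXis arrays lay above all AdGFP arrays. The difference was 0.27 (SE 0.11, 95% interval 0.03 to 0.51), a 1.21-fold ratio that missed the threshold (limma adjusted p = 0.119, unadjusted p = 0.0332). This value comes from probe A_55_P2055854 (mm9, chr15:85632110-85632169, plus strand). A second probe, A_55_P2071596 (chr15:85637193-85637252), gave 0.37 (SE 0.13, limma adjusted p = 0.0968 over all probes). The third, A_55_P2071601 (chr15:85632534-85632593), gave 0.01 (SE 0.11, limma adjusted p = 0.948 over all probes), so the size of the difference depended on the probe.

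Cpt1a, the outer-membrane carnitine palmitoyltransferase that controls entry of long-chain fatty acids into mitochondria, was at 14.85, 14.92, 14.82 and 14.78 in AdGFP and at 14.47, 14.89, 14.86 and 14.58 in AdLeXis. AdLeXis replicates 1 and 4 lay below every AdGFP array and the other two within the AdGFP range. The difference was -0.14 (SE 0.11, 95% interval -0.40 to 0.12; limma adjusted p = 0.436). The probe, A_51_P427674 (mm9, chr19:3385374-3385433, plus strand), is printed at 10 spots per array, and those spots had an SD of 0.032 to 0.073 within an array, after 9 outlier spots over the 8 arrays were left out. Between samples the SD was 0.06 in AdGFP and 0.21 in AdLeXis. The single-spot probe A_55_P2057405 (chr19:3384060-3384119) gave 0.34 with an SE of 0.33 (limma adjusted p = 0.537 over all probes).

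Cpt2, the inner-membrane enzyme that returns the acyl group to CoA, was at 13.44, 13.43, 13.31 and 13.33 in AdGFP and at 13.28, 13.66, 13.55 and 13.64 in AdLeXis. Here 3 AdLeXis arrays lay above all AdGFP arrays and AdLeXis replicate 1 lay below them all. The difference was 0.16 (SE 0.10, 95% interval -0.08 to 0.39; limma adjusted p = 0.339) at probe A_55_P2033650 (mm9, chr4:107576591-107576650, minus strand). The other probe, A_55_P2074174, lies further 5′ in the gene (chr4:107580325-107580384, minus strand) and had the opposite sign, -0.19 (SE 0.21, limma adjusted p = 0.609 over all probes). The mean of both probes gave -0.015.

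Acadm, the medium-chain acyl-CoA dehydrogenase of mitochondrial beta-oxidation, was at 15.06, 15.34, 15.05 and 14.97 in AdGFP and at 15.38, 15.64, 15.36 and 15.38 in AdLeXis. Every AdLeXis array lay above every AdGFP array, but the lowest AdLeXis value and the highest AdGFP value were 15.36 and 15.34. The difference was 0.34 (SE 0.11, 95% interval 0.08 to 0.59), a 1.26-fold ratio (limma adjusted p = 0.0697, unadjusted p = 0.0149). Without AdGFP replicate 2 the difference was 0.41 and passed (limma adjusted p = 0.0417). Acadm was also past the threshold under 4 other settings: normexp background correction, quantile scaling, cyclic loess scaling and a variance model with an intensity trend. It thus passed in 5 of 19 alternative settings and missed in the others, with 0.25 under median scaling (limma adjusted p = 0.279). Its only probe is A_51_P319879 (mm9, chr3:153585670-153585729, minus strand).

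Ehhadh, the peroxisomal bifunctional enzyme (enoyl-CoA hydratase and 3-hydroxyacyl-CoA dehydrogenase), was at 13.49, 14.13, 13.60 and 13.69 in AdGFP and at 13.20, 13.98, 13.84 and 14.04 in AdLeXis. The lowest array was AdLeXis replicate 1 and the highest AdGFP replicate 2. The means were nearly the same, 13.73 ± 0.28 and 13.76 ± 0.38 (SD, n = 4 per group). The difference of 0.04 (SE 0.21) had a 95% interval from -0.44 to 0.52 (limma adjusted p = 0.924). The data were therefore compatible with a change of either sign within those bounds. Its probe is A_51_P462918 (mm9, chr16:21761914-21761973, minus strand).

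Cyp4a10, a fatty acid omega-hydroxylase, was at 15.14, 15.22, 14.63 and 14.97 in AdGFP and at 14.43, 15.22, 15.16 and 14.70 in AdLeXis. The groups overlapped over nearly their whole ranges. The difference was -0.11 (SE 0.21, 95% interval -0.58 to 0.36; limma adjusted p = 0.756) at probe A_51_P254895 (mm9, chr4:115206200-115206259, plus strand). The other probes gave -0.15 (A_55_P2011111, chr4:115206150-115206209, which overlaps the first by 10 bases) and -0.13 (A_55_P2092030, chr4:115198463-115198522), so all 3 Cyp4a10 probes had the same sign and none passed.

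The Cyp4a genes lie in a cluster on chromosome 4, and probes of Cyp4a10 resembled those of its neighbour Cyp4a31, whereas the Cyp4a14 probe shared a run of at most 6 bases with any other Cyp4a probe. The upstream Cyp4a10 probe and a Cyp4a31 probe (mm9, chr4:115243923-115243982, plus strand) are identical at 54 of 60 bases, with a longest shared run of 27. They are shown with the 6 differing bases in capitals:
Cyp4a10 A_55_P2092030: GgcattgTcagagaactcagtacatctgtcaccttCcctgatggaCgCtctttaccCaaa
Cyp4a31 A_55_P1952399: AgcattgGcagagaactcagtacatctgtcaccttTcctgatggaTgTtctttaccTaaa
The brightest probes of both genes also share a run of 34 bases. Signals of Cyp4a10 and Cyp4a31 are therefore reported as uncertain between the copies, and how much of each signal came from the other gene was not tested.

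Cyp4a14, another omega-hydroxylase of the cluster, was at 15.50, 15.98, 14.36 and 15.40 in AdGFP and at 15.61, 15.80, 15.50 and 15.71 in AdLeXis. AdGFP replicate 3 was the lowest array and AdGFP replicate 2 the highest, with the 4 AdLeXis arrays between them. The AdGFP arrays spanned a 3.09-fold range and the AdLeXis arrays a 1.23-fold range. The difference of 0.34 (SE 0.30, 95% interval -0.35 to 1.03; limma adjusted p = 0.481) rested on AdGFP replicate 3 and was 0.03 without it. The probe is A_51_P238576 (mm9, chr4:115158914-115158973, minus strand).

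Fgf21 was at 8.91, 9.58, 8.10 and 8.53 in AdGFP and at 7.23, 8.18, 8.57 and 8.84 in AdLeXis. It was lowest in AdLeXis replicate 1 and highest in AdGFP replicate 2, and the other arrays intermixed. The range was 2.78-fold in AdGFP and 3.04-fold in AdLeXis. The difference was -0.58 (SE 0.40, 95% interval -1.50 to 0.35; limma adjusted p = 0.371), and -0.25 without AdLeXis replicate 1. Fgf21 thus had the largest difference by size among the 8 genes and also the largest SE. Its single probe, A_52_P235347 (mm9, chr7:52869305-52869364, minus strand), has a GC content of 20.0%, lower than nearly all probes on the array (percentile 0.3, median 43.3%).

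**Figure D2:**
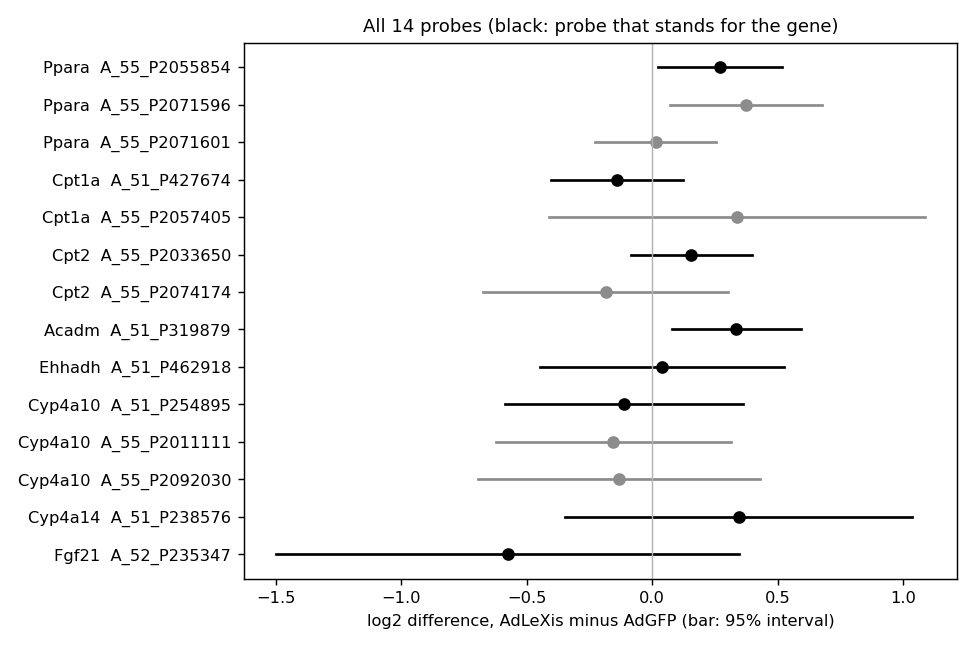
Log2 difference, AdLeXis minus AdGFP (horizontal axis), of all 14 probes in the fit over all kept probes, with 95% intervals; black marks the probe that stands for its gene. Intervals of 3 probes, 2 of Ppara and that of Acadm, lie above 0, the 2 probes each of Cpt1a and Cpt2 fall on opposite sides of 0, and no probe passed after adjustment.

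After group means were removed, all 28 pairs of members correlated positively over the 8 arrays. Values ran from 0.166 (Cpt1a with Cyp4a14) to 0.883 (Cpt1a with Cyp4a10). These arrays share their scaling, and the values are descriptions. Pairs of other genes were not counted, so whether this is particular to the members is not known. AdLeXis replicate 1 was the lowest of its group for 6 of the 8 members, and AdGFP replicate 2 the highest of its group for 7. Among the 152 genes of the 9 pathway lists below, AdLeXis replicate 1 was lowest for 92 (60.5%) against 28.6% of all genes, and AdGFP replicate 2 was highest for 66 (43.4%) against 22.9%. Across all genes, the mean correlation with the other arrays of the group was 0.992 for AdLeXis replicate 1 and 0.993 for AdGFP replicate 2, within the range of the 8 arrays.

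The members differed in spread. By pooled within-group SD among genes within 1 log2 unit of their signal, Cyp4a14 stood at percentile 99.7 (through its AdGFP arrays), Fgf21 at 99.6, Ehhadh at 95.4 and Cyp4a10 at 94.2. Acadm and Cpt1a stood at 69.7, Ppara at 62.2 and Cpt2 at 55.3. Simulated data gave every gene its own within-group SD, and the genes to be changed were drawn at random from all genes, not from the members. A 1.5-fold change was recovered for 27 of 67 genes and a 2-fold change for 48 of 67. These shares do not describe the members, some of which had a wider spread than most genes. The simulation changed 67, 67 and 66 of 23923 genes by 1.5, 2 and 4 fold. In the real comparison 17.5% of all genes passed. The adjustment is stricter where fewer genes change, so these shares are not the detection rate of the real comparison.

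By the rule fixed for naming look-alikes, the gene whose within-group deviations were most like those of Cyp4a10 was Cyp4a31 (Pearson 0.992 over 8 arrays, of 13981 genes compared), which shares probe sequence with it. The other closest genes were Tmcc1 for Ppara (0.979), Map2k1 for Cpt1a (0.989), Bik for Cpt2 (0.980), Neu2 for Acadm (0.986), Ubtd1 for Ehhadh (0.992), Trarg1 for Cyp4a14 (0.982) and Aptx for Fgf21 (0.981). These are descriptions over 8 arrays that share their scaling.

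Related genes were then counted in 9 lists, which leave the members out. Of 152 genes, 20 were higher in AdLeXis, 10 lower and 122 did not pass, and their median difference was 0.06, against -0.002 over all genes. That is 13.2% higher and 6.58% lower, where 8.73% and 8.77% of all genes were.

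Among 20 partners and coregulators of PPARalpha, 1 rose, 0 fell and 19 did not pass (median 0.08). The one that rose was Esrra, a nuclear receptor of mitochondrial gene control, from 11.99 ± 0.09 to 12.34 ± 0.10 (SD, n = 4 per group; difference 0.34, SE 0.09, limma adjusted p = 0.0279), and missed it when any of AdGFP replicates 1, 3 and 4 and AdLeXis replicates 2 and 4 was left out (adjusted p up to 0.0688 by limma). Without the scanner software's detrending it differed by 0.15 and did not pass (limma adjusted p = 0.359), nor did it under median scaling, normexp correction or no filter on dim probes. Rxra, the heterodimer partner, and Ppargc1a, the fasting-induced coactivator, were chosen after their values were seen. Rxra differed by -0.03 (SE 0.07) and Ppargc1a by -0.09 (SE 0.19), and neither passed.

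Among 16 genes of fatty acid uptake and activation, 2 rose, 5 fell and 9 did not pass (median 0.01). The fatty acid translocase Cd36 rose from 9.22 ± 0.15 to 10.76 ± 0.50 (SD, n = 4 per group; difference 1.54, SE 0.23, limma adjusted p = 0.00423). Acsm3, a medium-chain acyl-CoA synthetase, rose by 0.74 (SE 0.11, limma adjusted p = 0.00442). The abundant liver fatty acid binding protein Fabp1 fell, with every AdLeXis array below every AdGFP array (difference -0.49, SE 0.08, limma adjusted p = 0.00485), but under quantile scaling its difference was -0.06 and did not pass. The others that fell were Slc27a4, Acsm1, Dbi and Acsl5, by 0.34 to 0.59 on the log2 scale. Without AdLeXis replicate 1, 4 genes rose.

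Among 9 other genes of the carnitine shuttle, 2 rose, 0 fell and 7 did not pass (median 0.10). Both that rose are isoforms of carnitine palmitoyltransferase 1 other than the liver form: the muscle isoform Cpt1b went from 6.49 ± 0.31 to 8.28 ± 0.43 (SD, n = 4 per group; difference 1.79, SE 0.23, limma adjusted p = 0.00242). The brain isoform Cpt1c went from 4.81 ± 0.13 to 5.39 ± 0.19 (difference 0.58, SE 0.12, limma adjusted p = 0.0136) and was -0.12 under normexp background correction. Slc25a20, the carnitine-acylcarnitine carrier between Cpt1 and Cpt2, was chosen after its value was seen and did not pass (0.39, SE 0.14, limma adjusted p = 0.0873).

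Among 19 other genes of mitochondrial beta-oxidation, 3 rose, 0 fell and 16 did not pass (median 0.16). Hadh, the short-chain 3-hydroxyacyl-CoA dehydrogenase, rose by 0.41 (SE 0.09, limma adjusted p = 0.0202). Acadvl, the very-long-chain acyl-CoA dehydrogenase, rose by 0.33 (SE 0.09, limma adjusted p = 0.0362), and Hadha, the alpha subunit of the trifunctional protein, by 0.33 (SE 0.09, limma adjusted p = 0.0435). These are small changes near the threshold. With 1 array left out the count fell to 0 (AdGFP replicate 1, AdLeXis replicates 2 and 4) or 1 (AdGFP replicate 4) or reached 4 (AdLeXis replicate 1), and it was 0 under median scaling. Hadha passed in 8 of 19 alternative settings. Under normexp correction Acadvl differed by 0.73 and Hadha by 0.77, and without the software's detrending by 0.61 and 0.68.

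Among 20 other genes of peroxisomal fatty acid oxidation, 2 rose, 0 fell and 18 did not pass (median 0.01). Abcd2, a peroxisomal transporter of very long acyl-CoAs, rose from 5.06 ± 0.33 to 6.21 ± 0.38 (SD, n = 4 per group; difference 1.15, SE 0.22, limma adjusted p = 0.0108), and by 0.39 under normexp correction. The acyl-CoA thioesterase Acot8 rose by 0.53 (SE 0.11, limma adjusted p = 0.0162) and missed the threshold under median scaling (0.45) and without the scanner software's detrending (0.34).

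Among 15 other genes of omega-hydroxylation, 1 rose, 1 fell and 13 did not pass (median -0.14). Cyp4v3, a fatty acid omega-hydroxylase, rose from 14.08 ± 0.07 to 15.08 ± 0.31 (SD, n = 4 per group; difference 1.003, SE 0.15, limma adjusted p = 0.00406). Cyp4f18, a family member known from leukotriene hydroxylation in myeloid cells, fell by 0.85 (log2; SE 0.15, limma adjusted p = 0.00727), with a difference of -0.49 under normexp correction; macrophage and lymphocyte markers were also lower in AdLeXis (below), and their part in it was not tested. Cyp4a12a and Cyp4a12b, the male-predominant omega-hydroxylases of the same cluster, were chosen after their values were seen. Cyp4a12a was at 13.47, 14.01, 14.12 and 13.17 in AdGFP and 11.73, 13.69, 13.62 and 13.91 in AdLeXis, and Cyp4a12b was at 12.26 in AdLeXis replicate 1 against 14.10 to 14.43 on the other AdLeXis arrays. Neither passed, and each difference turned from negative to positive without AdLeXis replicate 1 (0.05 and 0.03).

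Among 10 genes of ketogenesis and ketone transport, 4 rose, 1 fell and 5 did not pass (median 0.36). Acat1, the mitochondrial thiolase that makes acetoacetyl-CoA, rose from 12.70 ± 0.12 to 13.43 ± 0.22 (SD, n = 4 per group; difference 0.73, SE 0.12, limma adjusted p = 0.00659). The monocarboxylate transporter Slc16a6, known for ketone export from hepatocytes, rose by 0.996 (SE 0.12, limma adjusted p = 0.00162), and Bdh2, a cytosolic short-chain dehydrogenase, by 0.75 (SE 0.17, limma adjusted p = 0.0219). Slc16a7 also rose (0.41), and Oxct1, the enzyme that uses ketone bodies in other tissues, fell by 0.55 on the log2 scale. Leaving out AdGFP replicate 2 or either of AdLeXis replicates 3 and 4 brought the higher genes to 2. Leaving out any array but AdGFP replicate 3 and AdLeXis replicate 1 brought the lower genes to 0.

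Among 25 other PPARalpha targets, 2 rose, 1 fell and 22 did not pass (median 0.19). Mogat1, a monoacylglycerol acyltransferase, rose from 4.77 ± 0.64 to 7.39 ± 0.51 (SD, n = 4 per group; difference 2.62, SE 0.35, limma adjusted p = 0.0028), and by 1.16 under normexp correction. The lectin Mbl2 rose by 0.29 (SE 0.08, limma adjusted p = 0.0357) and passed in 7 of 19 alternative settings, with differences from 0.10 without the software's detrending to 0.59 under quantile scaling. The lipid droplet coat protein Plin2 fell by 0.64 (log2; SE 0.16, limma adjusted p = 0.0284) and was not past it when AdLeXis replicate 4 or any of AdGFP replicates 1 to 3 was left out. Higher genes numbered 5 when AdLeXis replicate 1 was left out and 1 when any other array but AdGFP replicate 2 was. Pdk4, which spares glucose during fasting, and Vnn1, a pantetheinase, were chosen after their values were seen and did not pass (0.30, SE 0.36, and 0.61, SE 0.24).

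Among 18 genes of Fgf21 reception and of the integrated stress response, one of the inputs to Fgf21, 3 rose, 2 fell and 13 did not pass (median 0.03). Chac1, a glutathione-degrading enzyme downstream of ATF4, rose from 8.95 ± 0.30 to 10.90 ± 0.58 (SD, n = 4 per group; difference 1.95, SE 0.29, limma adjusted p = 0.00388). The receptor Fgfr3 rose by 0.70 (SE 0.10, limma adjusted p = 0.00369), and the lipoprotein receptor Vldlr by 1.16 (SE 0.24, limma adjusted p = 0.0145; 0.66 under normexp correction). Psat1, an enzyme of serine synthesis, and Atf5 fell, by 0.72 and 0.45 on the log2 scale. Members of the stress response thus went both ways; Atf4 itself, chosen after its value was seen, differed by 0.05 (SE 0.09). Klb, the coreceptor of Fgf21, was chosen likewise and differed by -0.41 (SE 0.16, limma adjusted p = 0.120). Without AdLeXis replicate 1, 5 genes rose, and without AdGFP replicate 2 or 4, 1 fell.

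Several marker lists also differed between the groups, where 8.77% of all genes were lower and 8.73% higher. Of 14 hepatocyte markers, 10 were lower in AdLeXis and 0 higher (median -0.42; mean level 16.65 to 16.78 on AdGFP arrays and 16.24 to 16.42 on AdLeXis arrays), though the median was -0.06 under quantile scaling; Hnf4a is in this list and among the coregulators. T and NK cell markers were lower for 12 of 14 (median -1.02; 8.93 to 9.03 against 8.12 to 8.28) and macrophage markers for 6 of 13 (median -0.48; 11.57 to 12.01 against 11.12 to 11.41). Stellate and fibroblast markers were lower for 3 of 12 and bile duct markers for 1 of 7, and 0 of 10 endothelial markers passed. Of 5 adipocyte markers tested 1 was higher (4.76 to 5.53 against 5.51 to 5.98), and the defining marker Adipoq was not well above background on enough arrays to be tested. The part of these markers in the values of the 8 genes was not tested, and fewer cells of a type and less RNA per cell cannot be told apart in bulk liver.

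Bright genes counted by signal band leaned downward. Of 479 genes at a log2 signal of 15 to 16, 7 were higher and 54 lower (median -0.09). Of 636 at 14 to 15, 36 were higher and 56 lower. Of 908 at 13 to 14, 71 were higher and 97 lower (median -0.003). Genes above 16 were not counted by band. Of the members, Acadm and Cyp4a14 lie in the first of these bands, Ppara, Cpt1a and Cyp4a10 in the second and Cpt2 and Ehhadh in the third. Fgf21 lies where 23.3% of 2019 genes passed. The bands were counted only under the scaling used for the test, so whether the lean holds under other scaling is not known. The median of the bright hepatocyte markers was -0.42 with that scaling, -0.06 under quantile scaling and -0.50 under median scaling.

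A spatial correction in the scanner software touched some members unequally. The software divides each spot by a levelling factor fitted over the slide surface. At the Ppara spot that factor was 0.603 to 0.826 on AdGFP arrays and 0.942 to 0.958 on AdLeXis arrays, and at the Cpt2 spot 0.661 to 0.836 and 0.996 to 1.016, so the groups did not overlap at these spots. They did not overlap for Ehhadh (0.769 to 0.982 and 1.027 to 1.079) or, in the other direction, for Cyp4a14 (1.23 to 1.304 and 1.066 to 1.192). For Cpt1a, over 10 spots spread across the array, the groups overlapped (0.960 to 1.007 and 0.971 to 0.993). The share of all spots where the factor separated the groups was not counted, so whether this is particular to these genes is not known.

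**Figure D3:**
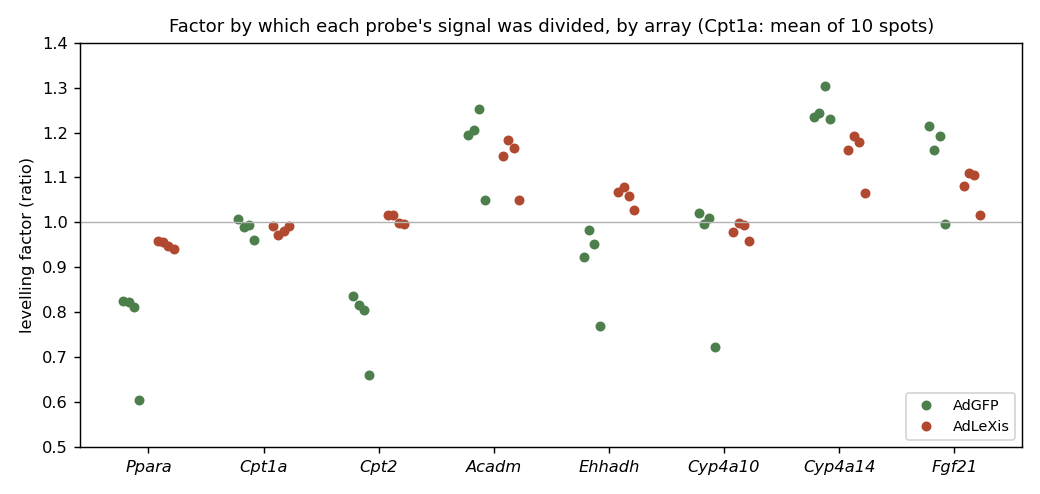
Levelling factor of the scanner software (a ratio, vertical axis) at the spots of each gene's probe on the 4 AdGFP (green) and 4 AdLeXis (red) arrays. AdGFP factors lie below AdLeXis factors on every array for Ppara, Cpt2 and Ehhadh and above them for Cyp4a14, and AdGFP replicate 4 has the lowest factor of its group for each gene. How often this holds over all spots was not counted.

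When the factor was undone, an alternative chosen after seeing the data, Ppara differed by 0.57 (limma adjusted p = 0.0517) and Cpt2 by 0.51 (limma adjusted p = 0.0343). Ehhadh then differed by 0.24 and Cyp4a14 by 0.19, and neither passed. Normexp background correction, which starts from spot means without this factor, gave 0.68 for Ppara (limma adjusted p = 0.00208) and 0.62 for Cpt2 (limma adjusted p = 0.00148), with Acadm at 0.38 (limma adjusted p = 0.0284). Under normexp 3 of 8 members passed, but 12701 of all genes did as well, 3016 higher and 9685 lower, with a median of -0.19 over all genes. Between the 10 Cpt1a spots of an array the SD was 0.032 to 0.073 with the factor applied and 0.059 to 0.418 without it.

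**Figure D4:**
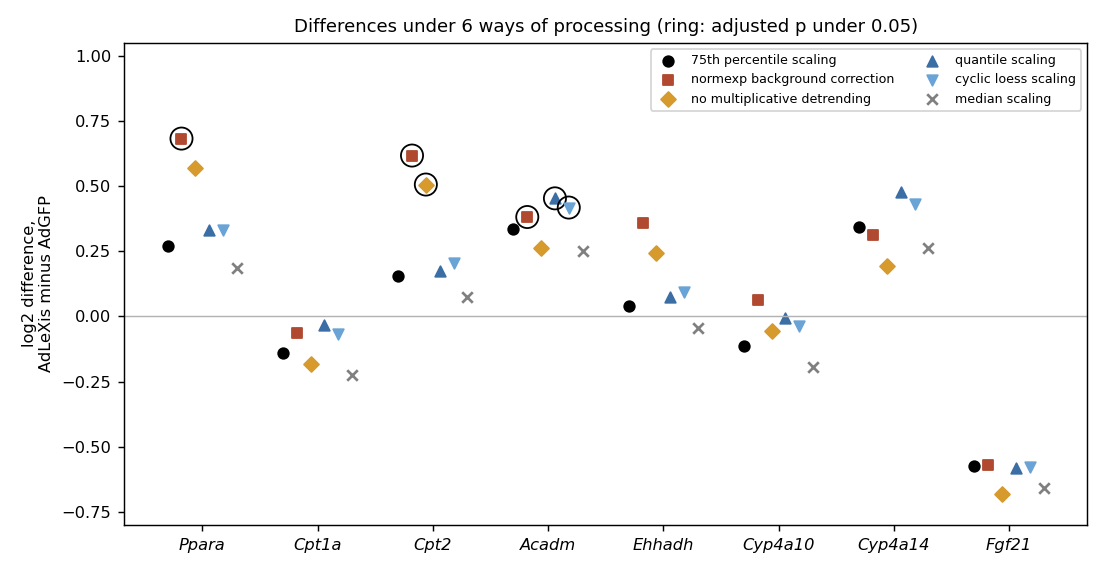
Log2 difference, AdLeXis minus AdGFP (vertical axis), of the 8 genes under 6 ways of processing, with a ring where limma's adjusted p was under 0.05. A ring appears for Ppara under normexp correction only, and for Cpt2 under normexp correction and without multiplicative detrending. Acadm has rings under normexp correction, quantile scaling and cyclic loess scaling. No setting gave a ring to the other 5 genes.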

How the data were processed

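The deposited spot intensity is linear, was made by Agilent Feature Extraction (version 11.5.1.1 in the headers, 11.5.1.11 in the submitters' processing notes) and, per the file headers, was background-subtracted and detrended on each array. The levelling factor is a deposited ratio per spot. Probe coordinates are mm9, per the file headers. The deposited value table differs from this intensity by at most 0 (relative). All 8 arrays share 1 slide and 1 scan, so no batch could be split.

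Log2 intensity was centred on the 75th percentile of each array's non-control spots; control and outlier spots were dropped, and repeat spots averaged. Probes had to be well above background on 4 or more arrays, with values on 2 or more arrays per group, and the kept probe of highest mean stood for a gene. Names were set by RefSeq accession for 27656 of 55681 probes. The rest kept the deposited name, which was a RefSeq symbol for 3401 probes and not for 24624. The test was limma 3.58.1 in R 4.3.3 (lmFit, eBayes, two-sided) with Benjamini-Hochberg adjustment over 23999 genes and a threshold of 0.05; every adjusted p in the text is limma's.

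Members and lists were chosen with earlier results of these data known. The rule named the members, up to 3 genes of smallest p past the threshold per list, and each member's closest gene by within-group deviations. On simulated data, 27 of 67 genes changed 1.5-fold, 48 of 67 changed 2-fold and 61 of 66 changed 4-fold were recovered, and 9 unchanged genes were called. Replicate numbers did not pair the samples (correlations of deviations 0.013, 0.065, 0.117 and 0.0016). The number of arrays limits the precision. Some genes that the lists count are not reported by name here.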

Additional observations from a re-analysis of the deposited data

Results flagged for a closer look

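In 9 of 66 groups looked at, given below, 1 array of 4 lay far from the other 3 by Dixon's criterion. That criterion flags about 1 in 20 groups by chance. Cyp4a12a and Cyp4a12b were chosen after their values were seen, so the number of such groups is not set against that rate. Among the members this was Acadm in AdLeXis replicate 2, at 15.64 against 15.36 to 15.38. AdLeXis replicate 1 was the low array for 5 genes: Cyp4a12a at 11.73 against 13.62 to 13.91, Cyp4a12b at 12.26 against 14.10 to 14.43, Abcd2 at 5.65 against 6.35 to 6.48, Acot8 at 11.69 against 12.06 to 12.12, and Chac1 at 10.03 against 11.15 to 11.25. The remaining 3 were Cd36 in AdGFP replicate 2, at 9.45 against 9.12 to 9.17, Cpt1c in AdGFP replicate 1, at 4.61 against 4.85 to 4.90, and Slc16a6 in AdLeXis replicate 3, at 11.31 against 11.57 to 11.60.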

How the results depend on the processing

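Of 19 alternatives, Ppara, Acadm, Cyp4a14 and Fgf21 kept their sign in all 19, and Cpt1a, Ehhadh, Cyp4a10, Cyp4a14 and Fgf21 passed in none. Where no cause is given, the cause was not tested.

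Under normexp background correction 12701 genes were called, 9685 of them lower; 3 members passed, Ppara at 0.68, Cpt2 at 0.62 and Acadm at 0.38, Cyp4a10 turned to 0.062 and Cpt1c to -0.12. Higher genes then numbered 2 in the PPARalpha partner list (Esrra not among them), 7 in uptake, 10 in mitochondrial oxidation, 11 in peroxisomal oxidation, 11 in other targets and 5 in the Fgf21 list, and lower genes 1 in peroxisomal oxidation, 4 in omega-hydroxylation and 2 in ketogenesis. Quantile scaling called 4258 of 23999 genes and 1 member, Acadm (0.45). With it, 3 uptake genes, 0 other targets and 1 gene of the Fgf21 list were lower, and 4 peroxisomal genes higher. Median scaling left 1157 genes higher and 2682 lower, turned Ehhadh to -0.043 and gave 0 higher PPARalpha partners, 0 higher mitochondrial genes, 1 higher peroxisomal gene and 1 higher other target. Cyclic loess scaling called 4316 genes and 1 member, Acadm (0.42), with 4 peroxisomal genes higher. An intensity trend in the variance called 5148 genes and 1 member, Acadm (0.34). There, 5 mitochondrial and 4 peroxisomal genes were higher and 1 peroxisomal gene lower.

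With no filter on dim probes, which tests more genes, higher genes numbered 0 for PPARalpha partners, 1 for mitochondrial oxidation and 1 for other targets, and lower genes 0 for ketogenesis, 0 for other targets and 1 for the Fgf21 list. The mean of a gene's probes turned Cpt1a to 0.10 and Cpt2 to -0.015. Without multiplicative detrending 4443 genes were called and 1 member passed, Cpt2 (0.51). Lower genes then numbered 1 for peroxisomal oxidation, 2 for omega-hydroxylation and 1 for the Fgf21 list. The replicate block called 3150 genes and 0 members, and higher genes numbered 2 for PPARalpha partners, 1 for the carnitine shuttle, 1 for mitochondrial oxidation and 1 for other targets; the numbers did not pair the samples.

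With 1 array left out, genes called ranged from 2519 to 4124, higher genes from 1245 to 2087 and lower genes from 1274 to 2037, with fewest without AdLeXis replicate 4. Ranges were 0.20 to 0.32 for Ppara, 0.27 to 0.41 for Acadm, -0.051 to 0.23 for Ehhadh (negative when AdGFP replicate 1, AdGFP replicate 3, AdLeXis replicate 2 or AdLeXis replicate 4 was left out), -0.23 to 0.038 for Cyp4a10 (positive without AdLeXis replicate 1), -0.68 to 0.048 for Cyp4a12a and -0.69 to 0.034 for Cyp4a12b. Members called ranged from 0 to 1. Higher genes ranged from 0 to 1 for PPARalpha partners, 2 to 4 for uptake, 0 to 4 for mitochondrial oxidation, 2 to 4 for ketogenesis, 1 to 5 for other targets and 3 to 5 for the Fgf21 list, and lower genes from 0 to 1 for peroxisomal oxidation, 1 to 2 for omega-hydroxylation, 0 to 1 for ketogenesis, 0 to 1 for other targets and 1 to 3 for the Fgf21 list. Slide and scan could not be blocked, since all arrays share them, and the value table is identical to the scanner signal.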
